A study of Mus musculus with 9 samples.

Results

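The genes described here are those of the collagens, the laminins and a small set of basement membrane proteins in mouse embryonic stem (ES) cells. A gene was taken as a member if its name on the array was that of a collagen chain or a laminin chain, or was Nid1, Nid2, Hspg2, Agrn or Sparc. The 58 genes described have 90 probes, of 55681 probes on the array, and 24 of the genes had more than 1 probe. A gene counted as measured if some group had its probe well above background on each of its 3 arrays, which held for 32 of the 58 members and for 19913 genes in all. The other 26 members were below that level in every group. Cells of 3 kinds were compared, with 3 arrays each and 1 array per sample. KO cells were a subcloned Xpc-null ES line. Induced cells carried the floxed Xpc allele and were sampled at day 4 after Cre-loxP deletion was induced (Xpc_f/f+Tx). Floxed cells carried the same allele without the inducing treatment (Xpc_f/f-Tx). Xpc encodes a protein of DNA damage recognition. The labels do not spell out Tx, and they do not give the number of KO subclones. Deletion of Xpc and subcloning therefore cannot be told apart in the KO cells, nor can deletion and Tx in the induced cells. Nothing says that the 3 samples of a group came from separate cultures, so p-values measure the spread between these samples, which may be technical. Their number limits the precision.

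Collagens are helices of 3 chains. The fibrillar types I, II, III, V and XI make up the fibrils of connective tissue, whereas type IV forms the sheet-like network of basement membranes. Laminins are trimers of an alpha, a beta and a gamma chain. They polymerise on the cell surface, nidogens and the proteoglycans perlecan (Hspg2) and agrin link them to collagen IV, and Sparc binds collagens. ES cells and the early embryo make the laminin of Lama1, Lamb1 and Lamc1 and deposit it as the first basement membrane, and mesenchymal cells are the usual source of collagens I and III.

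Levels are the scanner's processed signal divided by the 75th percentile of its array, in log2, and differences are on the same log2 scale. The Xpc probe read -0.85, -1.53 and -1.37 in KO cells, -1.11, -0.68 and -1.05 in induced cells and 0.59, 0.55 and 0.16 in floxed cells. It was lower in KO than in floxed cells by limma (adjusted p = 0.00584) and did not pass in induced against floxed cells (adjusted p = 0.224), and whether it lies in the deleted stretch was not analysed here. The 9 arrays were on 3 slides. Floxed 1 and 2 shared slide 1, floxed 3 and KO 3 shared slide 2, and slide 3 carried KO 1, KO 2 and the 3 induced arrays. No slide held both induced and floxed arrays, so slide and group cannot be told apart in that comparison without KO arrays. Floxed array 3 stood apart from the other floxed arrays: across genes its correlation was 0.986 with each of them and 0.991 to 0.993 with the KO arrays, against 0.996 between floxed 1 and 2. Where leaving it out changed a member's KO minus floxed call, values are given with and without it. Genes of the other lists are given with it only. Without it no slide held both KO and floxed arrays, so slide and group cannot be told apart in those KO minus floxed values.

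In KO cells, type I and type III collagen, the main chains of collagen IV and collagen VII were lower than in floxed cells. Of the 32 measured members, 6 were lower and 0 higher by limma with Benjamini-Hochberg adjustment over all genes at 0.05. Over all 19913 genes 1.10% were lower and 0.738% higher. The lower members were Col1a1, Col1a2, Col4a2, Col3a1, Col4a1 and Col7a1. Of these, Col1a1, Col1a2, Col4a2, Col3a1 and Col4a1 were also lower in KO than in induced cells, where the background was 1.54% lower and 0.658% higher and 0 members were higher. Leaving aside Col3a1, which was well above background on 0 KO arrays, 5 were lower than in floxed cells and 4 than in induced cells. Both comparisons use the same KO arrays. Induced cells differed from floxed cells in 0 members, with 1 gene of all called higher (0.00502%). At an unadjusted p under 0.05, 4 members were higher and 9 lower in KO than in floxed cells (11.7% and 11.1% of all genes), 0 were higher and 14 lower in KO than in induced cells (11.3% and 12.6%), and 3 were higher and 1 lower in induced than in floxed cells (3.37% and 2.53%). The 9 and the 14 hold Col3a1, Col20a1 and Lamb3, and the 14 also Col14a1. These were not well above background on all KO arrays, so both counts are partly set by the filter. The 4 higher members hold Col8a2, well above background on 1 of 3 floxed arrays, so that count is partly set by it too. The median difference over the measured members was -0.20 for KO against floxed cells and -0.26 for KO against induced cells, beside 0.01 and 0.02 over all genes.

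**Figure D1:**
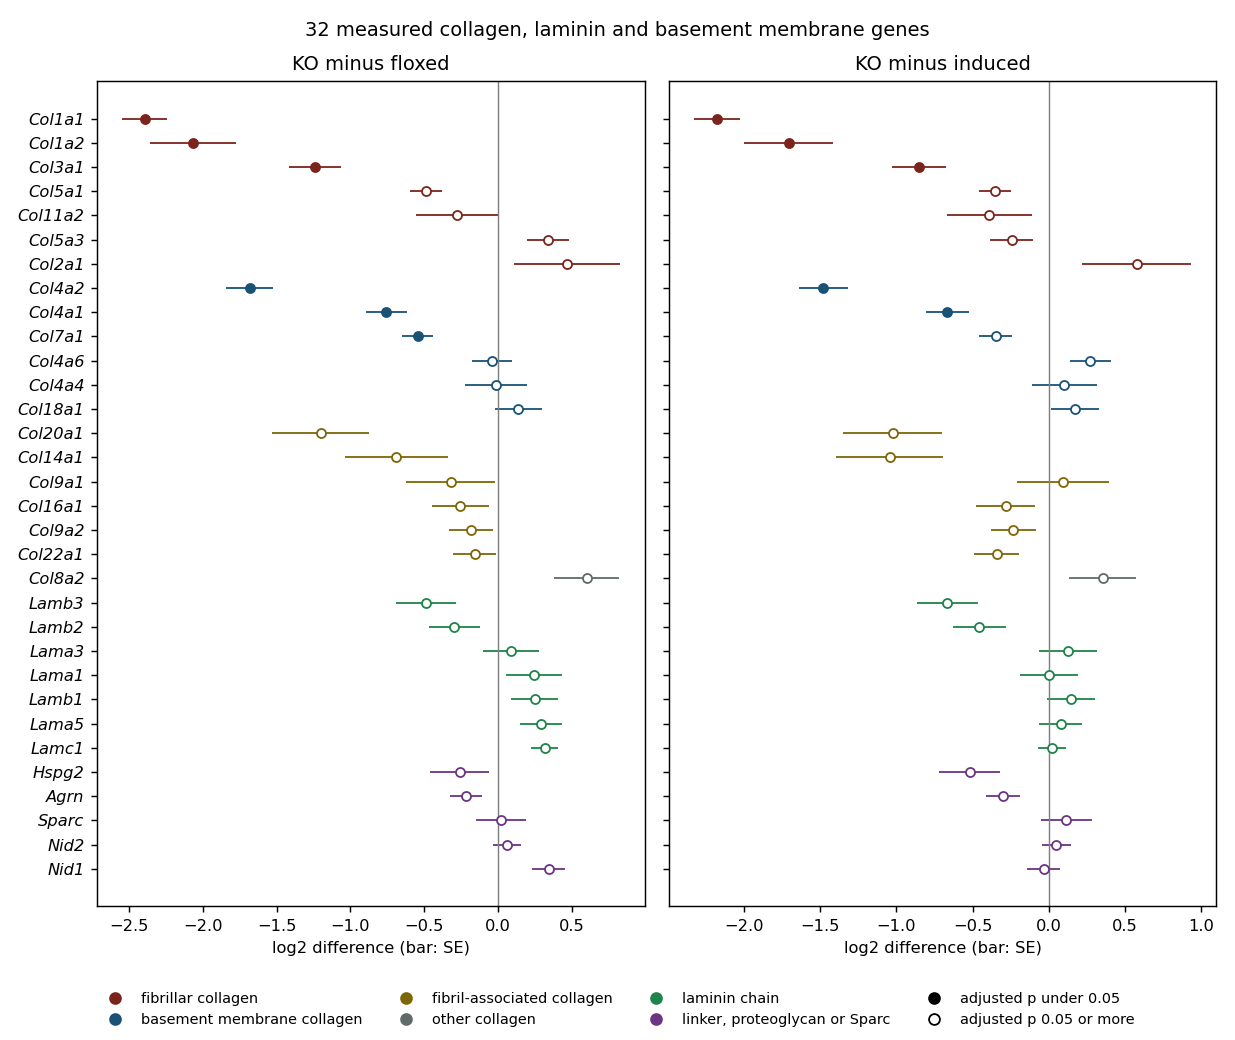
Log2 difference of each of the 32 measured members in KO minus floxed cells (left) and KO minus induced cells (right), with the standard error of the limma fit as a bar, filled where the adjusted p was under 0.05. Members are grouped by class and sorted by the left panel: filled points appear among fibrillar collagens and basement membrane collagens, all left of 0.

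The probes behind the 6 lower members have 60 bases each. Their first 30 bases are shown to say which stretch was measured, 5′ to 3′ as in the files.
Col1a1 probe: tgaccaactgaacgtgaccaaaaaccaaaa
Col1a2 probe: accaagaattccgtgtggaggttggccccg
Col3a1 probe: ataagccaaactctctgaaaccccagcaaa
Col4a1 probe: ttttcgtctctggagaaactgtactatcct
Col4a2 probe: cagtcttcctaaaatgaggcagagtctagg
Col7a1 probe: ctgtgataccatggtgctgatgggagggga
In mm9, the build of the files, they lie at chr11:94813115-94813174 (Col1a1), chr6:4490619-4490678 (Col1a2), chr1:45405589-45405648 (Col3a1), chr8:11199009-11199068 (Col4a1), chr8:11448840-11448899 (Col4a2) and chr9:108886861-108886920 (Col7a1). Exons of mm9 were not analysed here. Among the probes of the 32 measured members, the longest stretch that any pair shared was 11 bases, over 496 pairs.

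Among the fibrillar collagens, 7 of 11 were measured. In KO cells 3 were lower than in floxed cells (1.10% of all genes) and 3 than in induced cells (1.54%). Col1a1 and Col1a2 encode the chains of type I collagen. Col1a1 had log2 levels of -3.20, -2.77 and -2.99 in KO cells, -0.92, -0.78 and -0.73 in induced cells and -0.42, -0.48 and -0.88 in floxed cells. Every KO array was below every array of the other groups. The difference was -2.39 (SE 0.15, limma adjusted p = 0.00063) from floxed cells, a KO level of 19.0% of theirs, and -2.18 (SE 0.15, adjusted p = 0.00185) from induced cells. Col1a2 had log2 levels of -2.17, -1.75 and -1.42 in KO cells, -0.22, -0.01 and 0.0033 in induced cells and 0.79, 0.47 and -0.39 in floxed cells. The KO arrays were again the lowest, while floxed array 3 lay below the induced arrays. Its difference was -2.07 (SE 0.29, adjusted p = 0.0134) from floxed cells and -1.70 (SE 0.29, adjusted p = 0.0299) from induced cells. Col3a1, which forms type III collagen alone, had log2 levels of -3.73, -3.88 and -3.80 in KO cells, -2.58, -3.13 and -3.15 in induced cells and -2.42, -2.43 and -2.85 in floxed cells. It was well above background on 0 of the KO arrays and on all arrays of the other groups, so its difference is a bound: with the KO level set to the lowest signal well above background, Col3a1 was at least 1.92-fold lower in KO than in floxed cells and at least 1.47-fold lower than in induced cells. The measured differences were -1.24 (adjusted p = 0.0152) and -0.85 (adjusted p = 0.0487), but Col3a1 was kept through the groups in which it is bright, so these calls are partly set by the filter. It was not tested where a probe had to be above background on all 9 arrays.

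**Figure D2:**
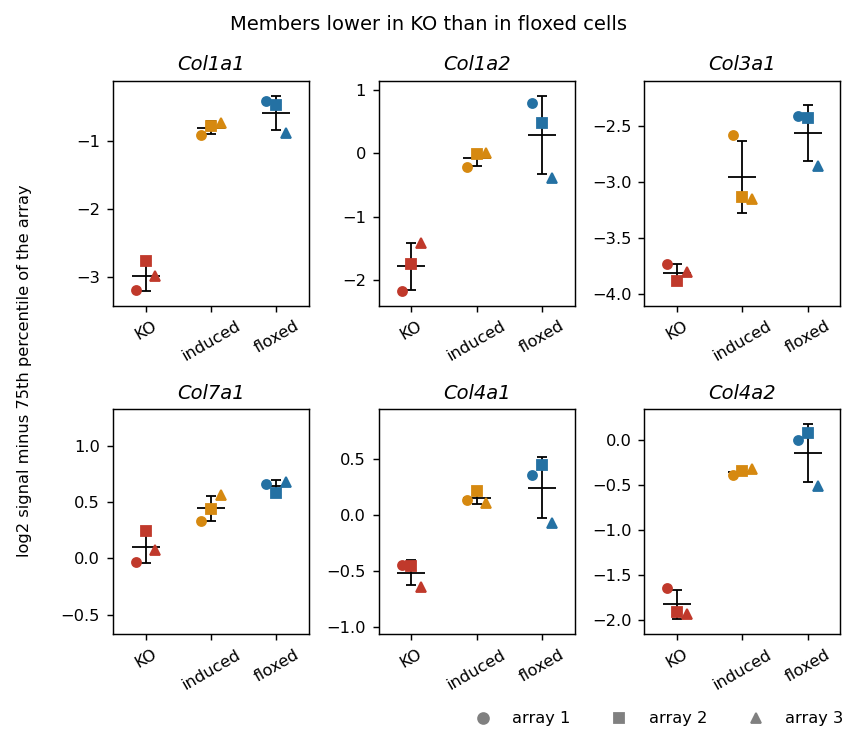
Log2 level (log2 signal minus the array's 75th percentile) of the 6 members lower in KO than in floxed cells, one panel per gene, with each array as a point and the group mean and SD as bars. Each panel has its own axis. The KO arrays lie below the induced and floxed arrays in all 6 panels, and floxed array 3 (triangle) is the lowest floxed point in every panel but that of Col7a1.

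Between KO 3 and floxed 3, 1 array each on slide 2 and so without a test, the log2 difference was -2.11 for Col1a1, -1.03 for Col1a2 and -0.95 for Col3a1. On slide 3 the difference between KO 1 and 2 and the induced arrays was -2.17 for Col1a1, -1.88 for Col1a2 and -0.85 for Col3a1. With slide as a block, the KO minus floxed difference is that between KO 3 and floxed 3. Its spread came from slides 1 and 3, so it is no separate check. In that fit Col1a1 passed (adjusted p = 0.0231), and Col1a2 and Col3a1 did not (adjusted p = 0.219 and 0.314). Col1a1 passed in every alternative run, 20 against floxed and 21 against induced cells. Against induced cells, Col1a2 missed the threshold without KO 1, KO 2 or any induced array (-1.78 to -1.51, adjusted p = 0.0902 to 0.121), and Col3a1 without any array other than floxed 3 (-0.95 to -0.66, adjusted p = 0.0604 to 0.163). Without KO 1, KO 2 or floxed 2, Col1a2 missed the threshold against floxed cells (differences of -1.88, -2.08 and -1.98, adjusted p = 0.0575, 0.0646 and 0.0651). Col3a1 missed it without KO 1, KO 2, floxed 1 or floxed 2 (adjusted p = 0.055, 0.0772, 0.0707 and 0.0769), and its difference from floxed cells was -0.40 with normexp background correction (adjusted p = 0.108) and -0.43 from the series matrix values (adjusted p = 0.167).

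The type V chains gave no call. Col5a1, whose product nucleates type I fibrils, had log2 levels of -1.78, -1.52 and -1.78 in KO cells, -1.42, -1.22 and -1.38 in induced cells and -1.24, -1.22 and -1.15 in floxed cells. Its KO arrays were below all others, but the difference of -0.49 (SE 0.11) from floxed cells had an adjusted p of 0.0598. Without floxed 3 it was -0.46 with an adjusted p of 0.0217. Col5a3 had a mean log2 level of -0.52 ± 0.17 in KO cells, -0.28 ± 0.19 in induced cells and -0.86 ± 0.17 in floxed cells (SD, n = 3 each), and passed in no comparison (adjusted p = 0.199, 0.322 and 0.482 for KO against floxed, KO against induced and induced against floxed). The third chain, Col5a2, was not measured. Col2a1, the cartilage collagen, had log2 levels of 0.61, 0.73 and 0.63 in KO cells, 0.08, 0.04 and 0.12 in induced cells and -0.38, -0.29 and 1.24 in floxed cells. Its floxed value depends on array 3: KO minus floxed was 0.47 (adjusted p = 0.463) with it, 0.99 (adjusted p = 0.00029) without it, and -0.61 between KO 3 and floxed 3. Col11a2 had a mean log2 level of -3.40 ± 0.55 in KO cells, -3.01 ± 0.27 in induced cells and -3.12 ± 0.31 in floxed cells, with overlapping arrays.

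The promoters of Col1a2 and Col3a1 are shown because these genes were lower together with Col1a1. They are RefSeq windows of GRCm38.p6 from 250 bases before to 50 bases after the gene's start, and no window for Col1a1 was used here. Capitals mark matches on either strand to CCAAT (the box bound by NF-Y), GGGCGG (the GC box), TATAAA (the TATA box) and TGANTCA (the AP-1 motif).
Col1a2 promoter, chr6:4505368-4505667, plus strand: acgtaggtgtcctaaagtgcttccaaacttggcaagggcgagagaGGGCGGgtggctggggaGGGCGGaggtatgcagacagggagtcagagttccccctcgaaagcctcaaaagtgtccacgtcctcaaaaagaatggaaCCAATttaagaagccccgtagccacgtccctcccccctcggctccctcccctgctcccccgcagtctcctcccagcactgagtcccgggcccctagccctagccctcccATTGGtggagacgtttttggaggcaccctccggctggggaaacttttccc
Col3a1 promoter, chr1:45311288-45311587, plus strand: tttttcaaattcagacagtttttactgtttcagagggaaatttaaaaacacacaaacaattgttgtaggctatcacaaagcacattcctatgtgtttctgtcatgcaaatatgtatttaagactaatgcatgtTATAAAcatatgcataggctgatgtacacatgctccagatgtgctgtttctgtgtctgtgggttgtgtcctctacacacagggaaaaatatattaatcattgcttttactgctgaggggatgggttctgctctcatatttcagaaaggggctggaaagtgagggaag
Col1a2 held CCAAT at -109 to -105 and, on the other strand, at 1 to 5, and GGGCGG at -205 to -200 and at -188 to -183. Col3a1 held TATAAA at -117 to -112 and none of the others. Over 32851 RefSeq promoters of the same length, CCAAT stood in 37.4%, GGGCGG in 35.7%, TATAAA in 13.6% and TGANTCA in 7.8%. Promoter windows were found for 28 of the 32 measured members: 10 held CCAAT, 18 GGGCGG, 2 TATAAA and 0 TGANTCA.

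Of the basement membrane collagens, 6 of 9 were measured. In KO cells 3 were lower than in floxed cells (1.10% of all genes) and 2 than in induced cells (1.54%). Col4a1 and Col4a2 encode the chains of the collagen IV network found in nearly all basement membranes. Col4a2 had log2 levels of -1.64, -1.90 and -1.93 in KO cells, -0.38, -0.33 and -0.32 in induced cells and 0.0026, 0.08 and -0.51 in floxed cells. Its KO arrays were all below the others, and the induced arrays lay within the range of the floxed ones. The KO level was 31.1% of that of floxed cells (-1.68, SE 0.16, adjusted p = 0.00176) and 35.9% of that of induced cells (-1.48, SE 0.16, adjusted p = 0.0042). Col4a1 had log2 levels of -0.44, -0.46 and -0.64 in KO cells, 0.14, 0.21 and 0.11 in induced cells and 0.36, 0.44 and -0.07 in floxed cells. The KO arrays of Col4a1 were likewise below all the others. Col4a1 was at 59.2% of the floxed level (-0.76, SE 0.14, adjusted p = 0.0355) and at 63.1% of the induced level (-0.66, SE 0.14, adjusted p = 0.0483). Between KO 3 and floxed 3 the difference was -1.42 for Col4a2 and -0.57 for Col4a1. Col4a2 passed in every alternative run, 20 against floxed and 21 against induced cells, slide as a block included (adjusted p = 0.0317). The difference from floxed cells with slide as a block is again that between KO 3 and floxed 3. Col4a1 did not pass against floxed cells with slide as a block (-0.57, adjusted p = 0.179), nor on leaving out any array other than floxed 3 (adjusted p = 0.0597 to 0.146), and without floxed 3 it passed (-0.91, adjusted p = 0.000639). Against induced cells it likewise missed the threshold without any array other than floxed 3 (-0.70 to -0.60, adjusted p = 0.0523 to 0.173).

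Col4a1 and Col4a2 are neighbours on chromosome 8, transcribed away from each other, and their promoter windows share 78 bases. Both are shown because both genes were lower in KO cells.
Col4a1 promoter, chr8:11312777-11313076, minus strand: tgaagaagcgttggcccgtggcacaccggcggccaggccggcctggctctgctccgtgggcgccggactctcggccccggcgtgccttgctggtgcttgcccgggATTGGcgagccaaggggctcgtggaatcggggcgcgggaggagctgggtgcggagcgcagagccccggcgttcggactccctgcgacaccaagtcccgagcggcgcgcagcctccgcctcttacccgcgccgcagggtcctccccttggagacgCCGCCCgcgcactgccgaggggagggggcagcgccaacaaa
Col4a2 promoter, chr8:11312555-11312854, plus strand: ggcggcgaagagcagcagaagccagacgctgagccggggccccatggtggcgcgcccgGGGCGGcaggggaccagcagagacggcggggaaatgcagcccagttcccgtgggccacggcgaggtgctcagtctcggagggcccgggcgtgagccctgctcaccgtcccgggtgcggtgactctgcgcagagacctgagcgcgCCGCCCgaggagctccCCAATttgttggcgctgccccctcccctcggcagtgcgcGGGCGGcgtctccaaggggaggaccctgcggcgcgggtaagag
Col4a1 held CCAAT on the other strand at -145 to -141 and GGGCGG on the other strand at 10 to 15. Col4a2 held CCAAT at -32 to -28 and GGGCGG at -192 to -187, at -48 to -43 on the other strand and at 8 to 13. The last of these and the GGGCGG of Col4a1 are the same site, which lies in the shared stretch. Within each array, the log2 ratio of the Col4a2 to the Col4a1 probe was -1.31 ± 0.13 in KO cells, -0.50 ± 0.06 in induced cells and -0.39 ± 0.05 in floxed cells (SD, n = 3 each). KO arrays lay between -1.45 and -1.19 and floxed arrays between -0.44 and -0.36. The ratio differed by -0.93 between KO and floxed cells, with an exact two-sided permutation p of 0.1, the smallest that 3 against 3 arrays allow (0.133 adjusted over the 4 tests of ratios made). For type I collagen the log2 ratio of Col1a2 to Col1a1 was 1.20 ± 0.31 in KO cells, 0.73 ± 0.04 in induced cells and 0.88 ± 0.37 in floxed cells. KO and floxed arrays overlapped in it (exact permutation p = 0.4), and KO and induced arrays did not (exact permutation p = 0.1, adjusted 0.133).

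**Figure D3:**
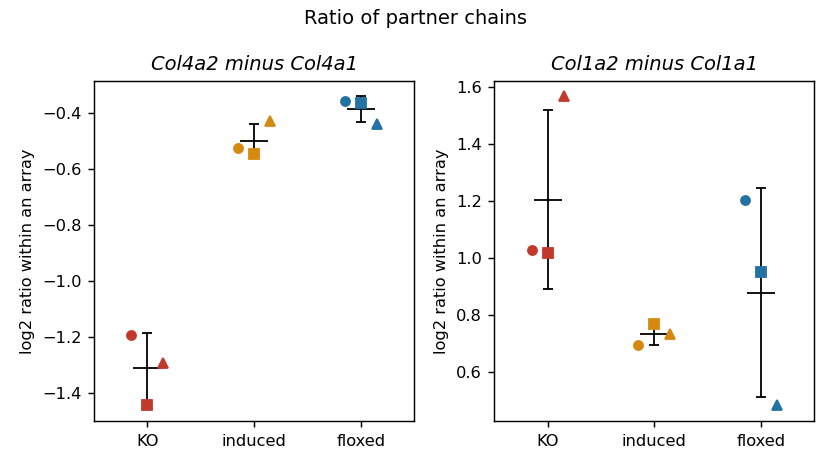
Log2 ratio within an array of Col4a2 to Col4a1 (left) and of Col1a2 to Col1a1 (right), each array a point, with group mean and SD as bars. The KO arrays lie below all induced and floxed arrays in the left panel, and in the right one they lie above the induced arrays and overlap the floxed ones.

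The other measured collagen IV chains gave no call. Col4a4 had a mean log2 level of -2.81 ± 0.38 in KO cells, -2.91 ± 0.32 in induced cells and -2.80 ± 0.14 in floxed cells, and Col4a6 had -1.80 ± 0.21, -2.07 ± 0.18 and -1.76 ± 0.08 in the same groups. The KO minus floxed differences were -0.01 (SE 0.21, adjusted p = 0.976) for Col4a4 and -0.04 (SE 0.13, adjusted p = 0.878) for Col4a6. Col7a1 forms the anchoring fibrils that tie epithelial basement membranes to the tissue below. It had log2 levels of -0.03, 0.25 and 0.08 in KO cells, 0.33, 0.44 and 0.56 in induced cells and 0.67, 0.58 and 0.68 in floxed cells, so that the 3 groups did not overlap. The difference was -0.55 (SE 0.11, adjusted p = 0.042) between KO and floxed cells, -0.35 (SE 0.11, adjusted p = 0.109) between KO and induced cells and -0.20 (SE 0.11, adjusted p = 0.914) between induced and floxed cells. It was -0.60 between KO 3 and floxed 3. With slide as a block the call of Col7a1 was lost (adjusted p = 0.318), as it was on leaving out any array other than floxed 3 (-0.62 to -0.48, adjusted p = 0.0547 to 0.165), while without floxed 3 it was -0.53 (adjusted p = 0.0132). Its promoter window is given as that of the remaining lower member with one in the table.
Col7a1 promoter, chr9:108953336-108953635, plus strand: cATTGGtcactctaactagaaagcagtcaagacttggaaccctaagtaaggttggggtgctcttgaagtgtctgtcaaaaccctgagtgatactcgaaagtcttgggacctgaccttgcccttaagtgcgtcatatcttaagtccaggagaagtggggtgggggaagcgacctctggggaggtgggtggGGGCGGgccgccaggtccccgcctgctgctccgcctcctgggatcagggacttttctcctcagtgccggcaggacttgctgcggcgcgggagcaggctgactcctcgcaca
It held CCAAT on the other strand at -249 to -245 and GGGCGG at -61 to -56. Col18a1, the proteoglycan collagen from which endostatin is cut, had log2 levels of 5.11, 5.22 and 5.10 in KO cells, 5.01, 4.92 and 4.98 in induced cells and 4.82, 4.79 and 5.41 in floxed cells. The high floxed 3 value put KO within the floxed range (0.14, adjusted p = 0.629). Without it the difference was 0.34 (adjusted p = 0.0211), and between KO 3 and floxed 3 it was -0.31. A second Col18a1 probe gave 0.07 for KO minus floxed.

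Of 10 laminin chains 7 were measured, and 0 passed in the 3 comparisons by limma. Below an unadjusted 0.05 in the same fit were 2 chains for KO against floxed cells (Lamb3, negative, and Lamc1, positive), 2 for KO against induced cells (Lamb2 and Lamb3, both negative) and 1 for induced against floxed cells (Lamc1, positive). Lama3 had a mean log2 level of -1.40 ± 0.30 in KO cells, -1.52 ± 0.15 in induced cells and -1.49 ± 0.29 in floxed cells. Lamb3 had log2 levels of -3.31, -3.09 and -2.90 in KO cells, -2.34, -2.47 and -2.50 in induced cells and -2.58, -2.20 and -3.06 in floxed cells. KO and induced arrays of Lamb3 did not overlap (-0.67, SE 0.20, adjusted p = 0.108), whereas floxed 3 lay among the KO arrays (KO minus floxed -0.49, adjusted p = 0.195, and -0.71, adjusted p = 0.0132, without floxed 3). Both genes encode chains of epithelial laminins.

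The chains of the laminin typical of ES cells did not pass in any of the 3 comparisons. Lama1 had log2 levels of 3.41, 3.56 and 3.41 in KO cells, 3.33, 3.61 and 3.44 in induced cells and 3.40, 3.51 and 2.74 in floxed cells. Lamb1 had 3.93, 3.81 and 3.60 in KO cells, 3.67, 3.56 and 3.68 in induced cells and 3.42, 3.29 and 3.89 in floxed cells. Floxed array 3 was the outlying value for both genes, low for Lama1 and high for Lamb1. Lamc1 had 4.14, 4.23 and 4.01 in KO cells, 4.06, 4.16 and 4.10 in induced cells and 3.82, 3.80 and 3.80 in floxed cells. Both KO and induced arrays of Lamc1 lay above all floxed arrays, by 0.32 (SE 0.09, adjusted p = 0.102) and 0.30 (SE 0.09, adjusted p = 0.602). Lama5, the alpha chain of most later basement membranes, averaged 4.46 ± 0.11 in KO cells, 4.38 ± 0.12 in induced cells and 4.17 ± 0.27 in floxed cells. Without floxed 3, where slide and group cannot be told apart, Lamb1, Lamc1 and Lama5 were higher in KO than in floxed cells (0.43, 0.31 and 0.45, adjusted p = 0.0302, 0.0439 and 0.0184). Between KO 3 and floxed 3 their differences were -0.28, 0.21 and -0.12. Lamb2 averaged 0.55 ± 0.06 in KO cells, 1.01 ± 0.13 in induced cells and 0.85 ± 0.37 in floxed cells (KO minus floxed -0.30, adjusted p = 0.334). Without floxed 3, Lamb2 was lower in KO than in floxed cells (-0.51, adjusted p = 0.00937), and between KO 3 and floxed 3 its difference was 0.07.

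The 5 linker, proteoglycan and Sparc genes were all measured and 0 passed in any of the 3 comparisons by limma. Nid1, a nidogen that bridges laminin and collagen IV, had log2 levels of 2.38, 2.35 and 2.18 in KO cells, 2.26, 2.40 and 2.35 in induced cells and 2.03, 2.07 and 1.79 in floxed cells. KO and induced arrays lay above the floxed ones, by 0.34 (SE 0.11, unadjusted p = 0.0124, adjusted p = 0.124) and 0.38 (SE 0.11, unadjusted p = 0.00751, adjusted p = 0.58). Nid2 averaged 3.62 ± 0.14 in KO cells, 3.58 ± 0.01 in induced cells and 3.57 ± 0.03 in floxed cells. Hspg2, which encodes perlecan, had 2.57, 2.78 and 2.60 in KO cells, 3.03, 3.35 and 3.12 in induced cells and 3.098, 3.22 and 2.41 in floxed cells. Its KO arrays lay below the induced ones (-0.52, SE 0.20, adjusted p = 0.166), and floxed 3 fell below all of them, so that KO minus floxed was -0.26 with it (adjusted p = 0.459) and -0.51 without it (adjusted p = 0.02). A second Hspg2 probe gave -0.56 for KO minus floxed. Agrn averaged 5.42 ± 0.06 in KO cells, 5.72 ± 0.05 in induced cells and 5.64 ± 0.19 in floxed cells, and Sparc 6.84 ± 0.17, 6.72 ± 0.06 and 6.81 ± 0.34. Agrn differed by -0.30 between KO and induced cells without overlap (adjusted p = 0.148). Without floxed 3, Agrn was lower in KO than in floxed cells (-0.32, adjusted p = 0.0246), while between KO 3 and floxed 3 the difference was -0.07. A second Agrn probe, well above background on all 9 arrays, gave 0.09 for KO minus floxed.

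**Figure D4:**
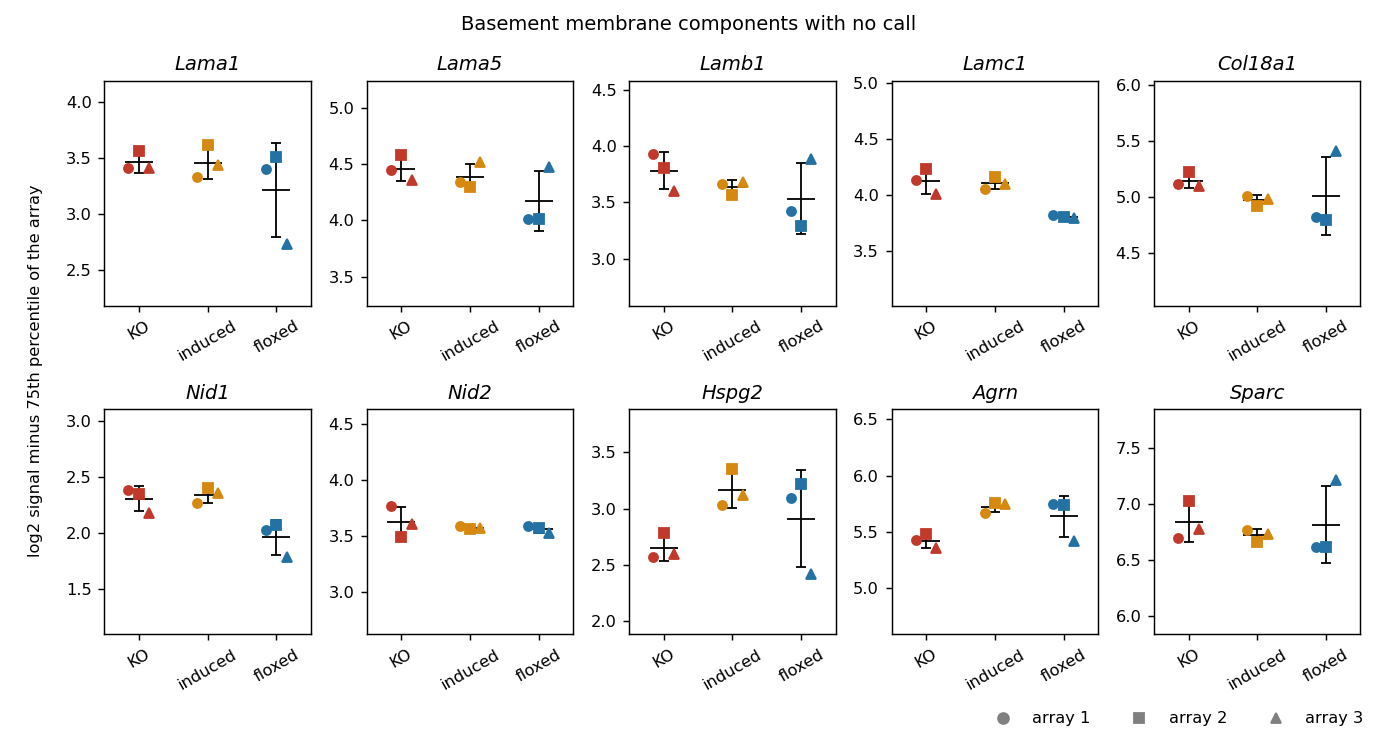
Log2 level (log2 signal minus the array's 75th percentile) of 10 basement membrane components that passed in none of the 3 comparisons, one panel per gene, each array a point, with group mean and SD as bars. Floxed array 3 (triangle) lies away from the other floxed arrays for Lama1, Lama5, Lamb1, Col18a1, Hspg2, Agrn and Sparc.

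Of the fibril-associated collagens, which decorate fibrils, 6 of 9 were measured and 0 passed in the 3 comparisons by limma. Col20a1 had log2 levels of -3.71, -3.76 and -2.65 in KO cells, -2.16, -2.47 and -2.41 in induced cells and -1.88, -1.88 and -2.75 in floxed cells. KO 3 and floxed 3, on 1 slide, were close to each other (0.10), while KO minus floxed was -1.20 over all arrays (SE 0.33, adjusted p = 0.0925) and -1.49 without floxed 3 (adjusted p = 0.0118). Its second probe was well above background on 0 KO arrays, so no difference is given for it. Col14a1 had -3.63, -4.41 and -3.43 in KO cells, -2.82, -2.61 and -2.90 in induced cells and -2.74, -2.72 and -3.93 in floxed cells. Again floxed 3 alone lay with the KO arrays (KO minus floxed -0.69, adjusted p = 0.272, and -1.09, adjusted p = 0.0201, without it). Both genes were well above background on 1 of 3 KO arrays and on all induced arrays. They were kept through groups in which they are bright, so that their KO levels are near a limit and their KO differences are partly set by the filter. The other measured members of the class, Col9a1, Col9a2, Col16a1 and Col22a1, had KO minus floxed differences between -0.32 and -0.16. Col9a1 was well above background on 1 KO array and 1 floxed array. A second Col22a1 probe, well above background on 1 of 3 KO arrays, gave -0.88 for KO minus floxed. With the mean of its probes, Col22a1 was lower in KO than in induced cells (-0.88, limma adjusted p = 0.0432). Of the 14 remaining collagens 1 was measured, Col8a2, whose KO minus floxed difference of 0.60 (adjusted p = 0.159) became 0.89 without floxed 3 (adjusted p = 0.000975). Between KO 3 and floxed 3 it was -0.01, as it was with slide as a block (adjusted p = 0.985), and Col8a2 was well above background on 1 of 3 floxed arrays. It was kept through the groups in which it is bright, so its differences from floxed cells are partly set by the filter.

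The 26 members not measured were 4 fibrillar collagens (Col5a2, Col11a1, Col24a1 and Col27a1), 3 basement membrane collagens (Col4a3, Col4a5 and Col15a1), 3 fibril-associated collagens (Col9a3, Col12a1 and Col19a1), 3 laminin chains (Lama2, Lama4 and Lamc3) and 13 other collagens. The last group held all chains of type VI collagen on the array (Col6a1 to Col6a6), with Col8a1, Col10a1, Col13a1, Col17a1, Col23a1, Col25a1 and Col28a1. Col6a2 came closest to being measured, with 6 arrays well above background, followed by Col23a1 with 4. Of the 32 measured members, 25 were well above background on all arrays of all groups, 4 on all arrays of only 2 groups and 3 of only 1 group.

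Arrays that did not overlap between groups gave a further description. In KO against floxed cells, 7 members had all KO arrays below all floxed arrays, the 6 lower ones and Col5a1, beside 11.4% of all genes, and 3 had them above (Col5a3, Lamc1 and Nid1), beside 12.0%. In KO against induced cells, 14 members had all KO arrays below all induced arrays (18.3% of all genes) and 3 above, Col2a1, Col8a2 and Col18a1 (19.0%). The 14 include Col3a1, Col14a1, Col20a1 and Lamb3, well above background on 0, 1, 1 and 2 KO arrays. They were kept through groups in which they are bright, so this count is partly set by the filter, as is that against floxed cells through Col3a1. Between induced and floxed cells, 3 members were lower without overlap (Col4a6, Col7a1 and Col9a1, beside 6.26%) and 3 higher (Col5a3, Lamc1 and Nid1, beside 6.63%). The 3 of 32 members are 9.38% in each direction, near the background. KO and induced cells share the floxed arrays in these comparisons. Without floxed 3, 13 of 32 members were lower and 6 of 32 higher in KO than in floxed cells, beside 11.8% and 13.1% of all genes. Slide and group cannot be told apart there. Those higher were Col18a1, Col2a1, Col8a2, Lama5, Lamb1 and Lamc1. Through Col8a2, well above background on 1 of 3 floxed arrays, the count of higher members is partly set by the filter. Within slide 3, 8 members were lower in KO than in induced cells, beside 7.12% of all genes, and 1 was higher, Col2a1 (0.59, adjusted p = 0.0158), beside 5.27%. Both sets of lower members hold Col3a1, Col14a1 and Col20a1, which were well above background on at most 1 KO array.

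**Figure D5:**
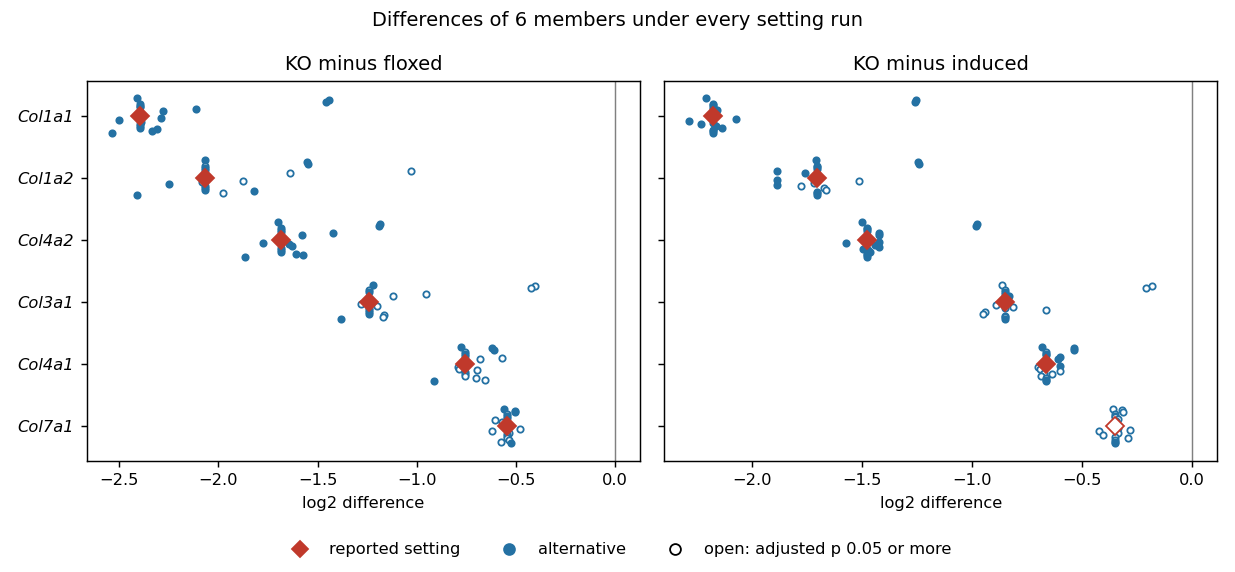
Log2 difference of the 6 members lower in KO than in floxed cells under every setting run, KO minus floxed (left) and KO minus induced (right), a diamond for the reported value and a dot for each alternative, open where the adjusted p was 0.05 or more. All points lie left of 0, and those of Col1a1 and Col4a2 are filled in both panels.

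Genes that make, bind or accompany these proteins were looked at from 3 lists. Over all genes, 1.10% were lower and 0.738% higher in KO than in floxed cells. In KO against induced cells the shares were 1.54% and 0.658%. Of 33 genes of collagen processing and crosslinking 26 were measured. Serpinh1, the collagen chaperone of the endoplasmic reticulum, fell: its log2 levels were 0.76, 0.93 and 0.73 in KO cells, 2.02, 1.46 and 1.69 in induced cells and 2.06, 2.19 and 1.59 in floxed cells (KO minus floxed -1.14, adjusted p = 0.0237, and KO minus induced -0.92, adjusted p = 0.0449). Pcolce, which enhances the cleavage of procollagen, rose against floxed cells: 4.89, 5.14 and 5.01 in KO cells, 4.54, 4.63 and 4.58 in induced cells and 4.33, 4.31 and 4.28 in floxed cells (KO minus floxed 0.71, adjusted p = 0.00896). Its KO minus induced difference of 0.43 did not pass (adjusted p = 0.0535). The median over the 26 was 0.09 for KO minus floxed. Of 15 matrix receptors 13 were measured, and 1, the laminin receptor chain Itga7, was lower in KO than in floxed cells (-0.55, adjusted p = 0.0402) and than in induced cells (-0.63, adjusted p = 0.0276). Of 29 other matrix glycoproteins 11 were measured and 2 were lower in KO cells. Thbs1, which encodes thrombospondin, differed by -2.18 from floxed cells (adjusted p = 0.00176) and by -2.19 from induced cells (adjusted p = 0.00313), and Tinagl1 by -1.42 (adjusted p = 0.016) and -1.01 (adjusted p = 0.0463). Tinagl1 was well above background on 1 of 3 KO arrays and on all others, so its KO level is near a limit. In induced against floxed cells 0 genes of the 3 lists passed by limma.

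Marker genes of ES cells and of other cell types were read on the same arrays. In bulk RNA, fewer cells of a type and less RNA per cell cannot be told apart. Summed levels are log2 of added linear levels, so the brightest marker of a list weighs most. All 10 ES cell markers were measured and 0 passed in KO against floxed cells. Utf1 was higher in KO than in induced cells (0.59, adjusted p = 0.0324), and no other passed there. Pou5f1, Sox2, Nanog, Klf4, Esrrb and Zfp42 lay below induced cells without passing (-0.66 to -0.21). Dppa4, Tdgf1 and Fgf4 differed by 0.01 to 0.08. The median KO minus induced difference of the list was -0.23, beside 0.02 over all genes. The summed log2 level of the list was 8.57 to 8.70 in KO cells, 8.76 to 8.90 in induced cells and 8.42 to 8.94 in floxed cells. Of 11 fibroblast or feeder cell markers 4 were measured (Thy1, Twist2, S100a4 and Vim), and Pdgfrb, Twist1, Prrx1, Dcn, Lum, Postn and Fap were not. Their summed level was 4.03 to 4.10 in KO cells, 3.77 to 3.89 in induced cells and 3.70 to 4.15 in floxed cells. That sum is mostly Vim, with mean levels of 3.80, 3.66 and 3.71 in these groups. Twist2 was lower in KO cells, on whose arrays it was not well above background, so its call is partly set by the filter. Thy1 differed the other way without passing, by 1.37 from floxed cells (adjusted p = 0.104) and 1.34 from induced cells (adjusted p = 0.103). Its level was 1.15 on floxed 3, beside -0.63 and -0.43 on floxed 1 and 2. From floxed cells, S100a4 differed by -0.60 and Vim by 0.10, and neither passed. Of 6 smooth muscle markers 5 were measured, and Acta2 (KO minus floxed -3.55, adjusted p = 0.000763) and Tagln (-2.07, adjusted p = 0.00063) were lower, as they were against induced cells. Cnn1, Myl9 and Des passed in neither comparison. They differed by -0.39, -0.10 and -0.45 from floxed cells and by -0.02, 0.39 and -0.57 from induced cells. The summed level of the list was 3.66 to 3.83 in KO cells, 4.50 to 5.0 in induced cells and 5.25 to 5.34 in floxed cells. Tagln weighs most in that sum, with mean levels of 2.62, 4.08 and 4.69 in these groups. Of 8 trophectoderm markers 7 were measured and 5 were lower in KO than in floxed cells (Cdx2, Gata3, Hand1, Krt8 and Krt18). Against induced cells 4 were lower, and Gata3 did not pass (adjusted p = 0.0588). Over all genes 1.10% and 1.54% were lower in these 2 comparisons. Cdx2 was well above background on 0 KO arrays and Gata3 and Hand1 on 1 each, so their calls are partly set by the filter. Eomes differed the other way without passing, by 0.45 from floxed cells (adjusted p = 0.404) and 0.71 from induced cells (adjusted p = 0.202). Tfap2c differed by -0.50 (adjusted p = 0.317) and -0.60 (adjusted p = 0.229). The summed level of the list was 5.21 to 5.33 in KO cells, 6.10 to 6.56 in induced cells and 6.31 to 6.87 in floxed cells. Of 14 primitive and parietal endoderm markers 5 were measured and 0 passed, and Gata6, Sox17, Sox7, Foxa2 and Pdgfra were among those not measured. Their summed level was -0.38 to -0.29 in KO cells, -0.37 to -0.17 in induced cells and -0.42 to -0.20 in floxed cells. Of 4 endothelial markers 2 were measured and 0 passed, and their summed level was 4.14 to 5.09 in KO cells, 4.16 to 4.71 in induced cells and 4.33 to 5.09 in floxed cells. That sum is nearly all Kdr, with mean levels of 4.46, 4.38 and 4.60 in these groups. The part of these cell types in the collagen differences was not tested.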

How the data were processed

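Total RNA (50 ng per sample) was labelled with Cy3 for Agilent arrays of 1 colour, per the labels' protocols. The deposited scanner files, written by Agilent Feature Extraction 10.7.3.1, give intensity per spot on a linear scale: a processed signal, background-subtracted and detrended within the array but not scaled between arrays, a raw mean signal and a local background. They also hold other spot marks, per the file headers. The deposited series matrix equals the mean signal intensity for 100% of values (tolerance 0.6%), with column medians of 94.5 to 140.0 and no centring. The members and all lists of genes were chosen with earlier results of these data known. A gene that the naming rule also picks is not reported here and is left out of all counts of members.

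Control and outlier spots were left out, spots of a probe averaged, and values taken as log2 of the processed signal minus log2 of the array's 75th percentile, which lay between 346 and 471. Probes well above background on all 3 arrays of a group were kept (27536; another 2 had no usable spot on an array), and a gene was read by its brightest probe. Between 47.4% and 57.9% of spots per array were well above background, and 0 spots were saturated. Names came from RefSeq accessions (27235 probes, GRCm38.p6) or else the files (28446). Groups were fitted together with limma 3.58.1 (R 4.3.3), eBayes and Benjamini-Hochberg adjustment over 19913 genes. Ratios of partner chains were tested by exact permutation over arrays. The fit was tested on simulated data. Named genes are the members called in any comparison, the chains of the named assemblies whether called or not, and called genes of the 3 context lists. Other genes with values were chosen after these were seen. Alternatives covered normalization, background correction, the series matrix, the filter, probe choice, slide, replicate number, the variance model, the samples fitted and each array left out. Replicate numbers were not used to pair the samples in the reported fit.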

Additional observations from a re-analysis of the deposited data

How the results depend on the processing

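All 6 members lower in KO than in floxed cells kept that direction in every alternative that tested them. The number called, 6 as reported, was 2 with no filter on dim probes, 2 with slide as a fixed block, 2 with slide as a random block, 3 with only the 2 groups compared in the fit, and 2 to 19 on leaving out each array in turn. The number against induced cells, 5 as reported, was 3 with no filter on dim probes, 11 with slide as a fixed block, 9 within slide 3, 10 with only the 2 groups in the fit, and 2 to 15 on leaving out each array. Against induced cells, 0 members of the 6 changed direction. The most calls, 19 and 15, came without floxed array 3, where slide and group cannot be told apart for KO against floxed cells. Induced against floxed cells, with 0 members called as reported, had 2 with slide as a block: Col2a1 was lower (-1.19, adjusted p = 0.0357) and Col20a1, reversed, was higher (1.49, adjusted p = 0.0359). The cause was not tested. The replicate number as a block gave 5 members for KO against floxed cells, 2 for KO against induced cells and 0 for induced against floxed cells. Deviations of samples with the same number correlated at -0.11 to 0.09, which does not settle whether the samples were paired. Some samples with the same number also shared a slide: KO 3 with floxed 3, KO 1 with induced 1 and KO 2 with induced 2. Members with no call changed sign between settings 30 times for KO against floxed, 31 times for KO against induced and 48 times for induced against floxed cells. Over all genes, calls for KO against floxed cells, 220 lower and 147 higher as reported, were 66 and 10 with no filter, 41 and 9 with slide as a block, 85 and 18 with it as a random block, 120 and 46 with the replicate block, 445 and 412 with an intensity trend, 62 and 20 with only the 2 groups, and 2341 and 2604 without floxed 3. For KO against induced cells, 307 and 131 as reported, they were 54 and 9, 1765 and 1484, 1075 and 737, 146 and 42, 500 and 319, 1520 and 1260, and 1923 and 1687 under the same settings. Dim members such as Col3a1, Col14a1 and Col20a1 are limited by their closeness to background.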
